A study of Homo sapiens with 12 samples.

Results

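Classical and nonclassical major histocompatibility complex (MHC) class I molecules carry short peptides from inside the cell to its surface, where T cells and natural killer cells read them. The proteasome cuts cytosolic proteins into peptides, and its immunoproteasome form, with the catalytic subunits PSMB8 and PSMB9, favors peptides that fit class I molecules. The TAP1 and TAP2 transporter moves these peptides into the endoplasmic reticulum, where they are loaded onto a heavy chain (HLA-B, HLA-C, HLA-E or HLA-F) that is paired with the light chain B2M. Interferons, the transactivator NLRC5 and NF-κB are known to raise the transcription of many of these genes. The transcripts of these 9 genes are described here, in SW13 cells with or without BRG1 (SMARCA4), an ATPase of the SWI/SNF chromatin remodeling complex. All probe sets that the array annotation assigns to the 9 symbols were taken, which gave 23 of the 54675 probe sets on the array (9 of 19775 genes with a probe set of their own), and 20 of the 23 were bright enough to be tested.

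Cells that carried pREP7 with BRG1 (SW13+BRG1) were set against cells with empty pREP7 (SW13+vector). SW13 is a human adrenal cortical carcinoma cell line that lacks BRG1 protein. Each line was irradiated with UV at 10 J/m2 or mock-treated and collected 6 h later, so that the groups were SW13+BRG1 with UV, SW13+BRG1 with mock treatment, SW13+vector with UV and SW13+vector with mock treatment, with 3 arrays each. The comparison of the lines asks which transcripts differ where BRG1 is present, and the comparison with mock treatment asks which respond to UV. The study's methods name 1 stable line with the vector and 1 with BRG1, and the 3 arrays of each group therefore come from that single line, so that p-values between lines measure the spread within these lines. An effect of BRG1 and any other difference between these lines cannot be told apart.

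Values are MAS signal intensities, scaled by the authors to a mean of 125 on each array, and in bulk RNA fewer cells that express a gene and less RNA per cell cannot be told apart. The SMARCA4 probe sets did not separate the lines the way the labels do. The SMARCA4 probe set 215714_s_at averaged 213 in mock-treated SW13+BRG1 and 539 in mock-treated SW13+vector cells (called lower), and 1 of the 7 tested SMARCA4 probe sets (212520_s_at) was called higher in SW13+BRG1, after UV only. Which part of the transcript these probe sets cover, and whether the BRG1 construct holds it, was not known, so they do not check the labels. Of 10 adrenal cortex genes on the array, 3 could be tested (FDX1, CYP17A1 and MC2R). The genes that define steroid-producing cells (NR5A1, STAR, CYP11A1) were too low to test in these lines. By brightest probe set, 0 of the 3 were called between the lines. Their median log2 fold change was 0.25 with UV and 0.28 with mock treatment. FDX1 went the other way, averaging 761 and 802 in SW13+BRG1 with UV and mock treatment, against 1494 and 1431 in SW13+vector. Of 3 tested FDX1 probe sets, 1 was called lower in each condition. Arrays of 1 group correlated at 0.894 to 0.949 over the tested probe sets and arrays of different groups at 0.763 to 0.915. Median signals were 21.1 to 25.3 on the 12 arrays.

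The promoters of these genes were searched for letters of elements through which the pathway is known to be controlled, and stretches that hold matches are given because genes with such matches differed in how far their signals stood apart between the lines. A match is a description and not a site. Promoter windows of 300 bases, from 250 before to 50 after the start (RefSeq, GRCh38.p14), were listed for 8 of the 9 genes, with 10 windows in all. A gene is counted below if any of its windows holds a match, whereas the shares of all promoters count each window. In the stretches below, written 5′ to 3′ on the strand of the gene, capitals mark letters found on either strand of an interferon-stimulated response element (GAAANNGAA, or GAANNGAAA with the longer run last), an NF-κB element (GGGANTTTC or GGGATTCCC), a Y box (CCAAT) and the first letters of a cyclic AMP response element (TGACG). The PSMB8 matches to the interferon element reach past the start. Upstream of the start, PSMB8 and PSMB9 held only CCAAT or TGACG, and their stretches are not shown.
HLA-B, chr6:31357227-31357359, minus strand: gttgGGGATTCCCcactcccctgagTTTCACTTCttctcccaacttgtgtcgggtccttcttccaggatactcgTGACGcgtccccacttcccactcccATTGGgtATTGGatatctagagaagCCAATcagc
HLA-C, chr6:31272140-31272288, minus strand: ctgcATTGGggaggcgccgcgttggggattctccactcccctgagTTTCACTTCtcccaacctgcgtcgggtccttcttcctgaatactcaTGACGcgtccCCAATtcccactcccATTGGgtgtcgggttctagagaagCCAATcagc
HLA-F, chr6:29723275-29723385, plus strand: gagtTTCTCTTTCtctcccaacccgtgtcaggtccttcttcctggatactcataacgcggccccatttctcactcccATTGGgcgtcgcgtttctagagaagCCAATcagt
B2M, chr15:44711369-44711476, plus strand: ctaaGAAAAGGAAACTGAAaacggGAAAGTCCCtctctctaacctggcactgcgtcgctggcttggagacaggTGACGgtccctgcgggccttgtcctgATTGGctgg
TAP1, chr6:32853764-32853954, minus strand: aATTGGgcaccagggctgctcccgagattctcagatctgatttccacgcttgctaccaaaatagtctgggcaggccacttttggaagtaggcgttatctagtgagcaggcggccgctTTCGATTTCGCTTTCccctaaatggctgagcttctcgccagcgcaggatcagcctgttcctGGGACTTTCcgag
TAP2, chr6:32838766-32838806, minus strand: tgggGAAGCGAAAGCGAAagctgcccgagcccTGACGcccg
GAAANNGAA was found in the windows of 5 genes (HLA-F, B2M, TAP1, TAP2 and PSMB8) and in 8.11% of all 35116 promoters listed. GAANNGAAA was found in 4 (HLA-B, HLA-C, TAP2 and PSMB8), where it overlaps the first form in TAP2 and PSMB8, and in 7.66% of all promoters. GGGANTTTC stood in B2M and TAP1 and in 1.28% of all promoters, and GGGATTCCC stood in HLA-B and in 0.384% of all promoters. CCAAT and TGACG are short and common, at 34.6% and 24.6% of all promoters. In PSMB9 no form of the interferon element was found in this window, which overlaps the far end of the TAP1 window, since TAP1 and PSMB9 are transcribed away from each other. A match describes the letters only and does not show a bound site.

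Of the 20 tested probe sets of these genes, 13 were called higher in UV-treated SW13+BRG1 than in UV-treated SW13+vector cells and 0 were called lower, whereas 7.68% of all 32622 tested probe sets were called higher and 5.97% lower. A call needed an adjusted p under 0.05 (limma, Benjamini-Hochberg over all tested probe sets) and a fold change over 2, and the words higher and lower are used of calls unless a value is given with its p. With mock treatment, 13 of 20 were again called higher in SW13+BRG1 and 0 lower, against 7.69% and 4.30% of all tested probe sets. The median log2 fold change of the 20 probe sets was 1.31 with UV and 1.56 with mock treatment, while the medians over all tested probe sets were -0.06 and -0.0045. The called probe sets belong to the same 6 genes in both conditions: the heavy chains HLA-B, HLA-C, HLA-E and HLA-F and the immunoproteasome subunits PSMB8 and PSMB9. B2M, TAP1 and TAP2 were not called. All 3 arrays of SW13+BRG1 lay above all 3 of SW13+vector for 18 of the 20 probe sets with UV and 17 with mock treatment, which held for 18.6% and 18.5% of all tested probe sets.

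**Figure D1:**
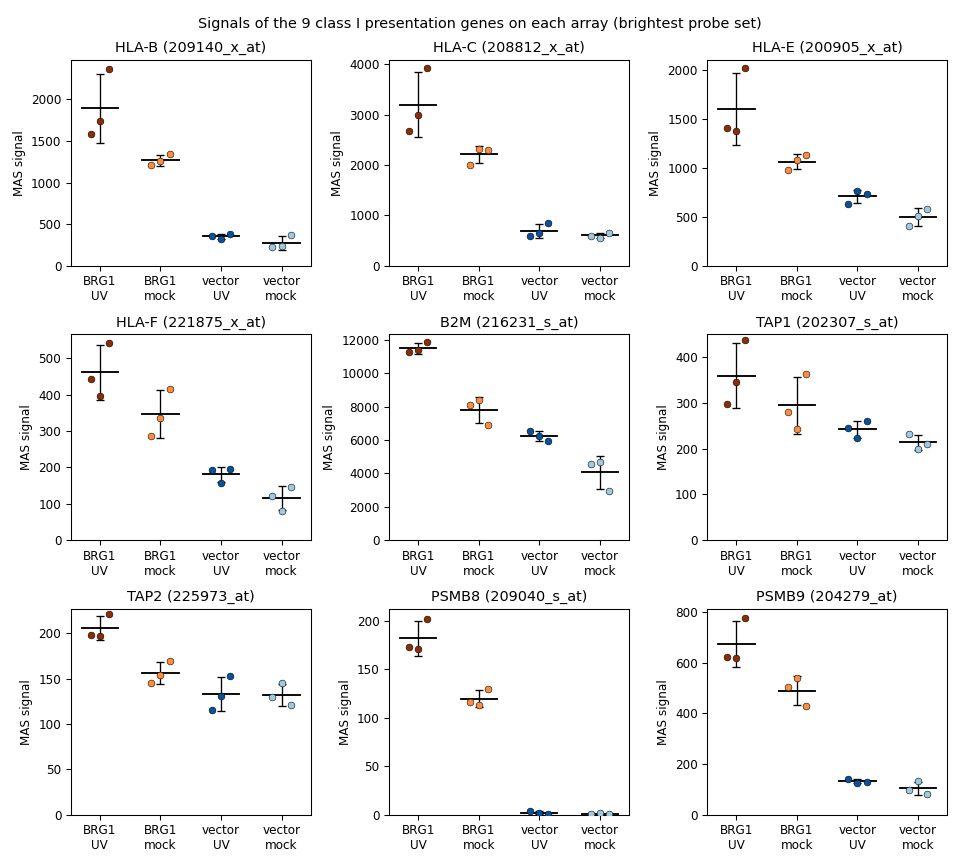
MAS signal (vertical axes, linear, starting at 0) of the brightest tested probe set of each of the 9 genes on each of the 12 arrays, with points for arrays, lines for group means and bars for the SD (n = 3). Within each condition the BRG1 and vector arrays are apart for HLA-B, HLA-C, HLA-E, HLA-F, B2M, TAP1, PSMB8 and PSMB9, and overlap in 1 condition for TAP2, whose mock-treated groups share the range near 145.

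HLA-C is a classical heavy chain that presents peptides to T cells and is a ligand of natural killer cell receptors. Its probe set 208812_x_at read 2682, 2990.0 and 3918 in SW13+BRG1 with UV and 2008, 2323 and 2299 in SW13+BRG1 with mock treatment. In SW13+vector it read 581, 643 and 848 with UV and 591, 552 and 656 with mock treatment. The lowest array with BRG1 was thus above the highest array with the vector in either condition. The log2 fold change was 2.21 (SE 0.16, limma adjusted p = 5.34e-07) with UV and 1.88 (SE 0.16, adjusted p = 2.35e-06) with mock treatment. All 4 HLA-C probe sets were called in both conditions, with log2 fold changes of 2.05 to 2.65 after UV and of 1.86 to 2.25 after mock treatment. The probe set 216526_x_at was the one with the value of 2.65 (SE 0.18), with means of 2719.6 ± 519.8 and 435 ± 78.6 (SD, n = 3) in UV-treated SW13+BRG1 and SW13+vector cells.

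HLA-B, the other classical heavy chain measured here, read 1582, 1737 and 2367 (209140_x_at) in SW13+BRG1 with UV and 1212, 1256 and 1338 in SW13+BRG1 with mock treatment. In SW13+vector the values were 353, 320.0 and 386 with UV and 221, 232 and 368 with mock treatment. No array overlapped between the lines. The log2 fold change of HLA-B was 2.41 (SE 0.19, limma adjusted p = 1.34e-06) with UV and 2.25 (SE 0.19, adjusted p = 2.46e-06) with mock treatment. The other HLA-B probe sets, 211911_x_at and 208729_x_at, had smaller log2 fold changes of 1.88 and 1.74 with UV and 1.68 and 1.51 with mock treatment, and both were called.

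HLA-E presents peptides cut from the leader sequences of other class I chains to the inhibitory receptor of natural killer cells. The HLA-E probe set 200904_at, which has no x in its suffix, read 537, 626 and 928 in SW13+BRG1 with UV and 386, 422 and 487 with mock treatment. SW13+vector cells had 242, 274 and 327 with UV and 123, 116 and 139 with mock treatment. The lines did not overlap, and the UV-treated vector cells lay between the mock-treated groups. The log2 fold change between the lines was 1.28 (SE 0.20, limma adjusted p = 0.000363) with UV and 1.77 (SE 0.20, adjusted p = 2.82e-05) with mock treatment. The probe set 200905_x_at was called too, at 1.15 with UV and 1.11 with mock treatment, but the UV call was lost without SW13+BRG1 UV array 3 (0.97) and the mock call without SW13+vector mock array 1 (0.97). The probe set 217456_x_at, at 0.77 and 0.97, fell short of the fold of 2.

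HLA-F, a nonclassical chain, read 443, 397 and 542 (221875_x_at) in SW13+BRG1 with UV and 287, 336 and 416 with mock treatment. The vector cells had 192, 157 and 195 with UV and 121, 80.0 and 147 with mock treatment, and the lines did not overlap. Between the lines the log2 fold change was 1.34 (SE 0.23, limma adjusted p = 0.000759) with UV and 1.60 (SE 0.23, adjusted p = 0.000209) with mock treatment. The second HLA-F probe set, 204806_x_at, was close to the threshold at 1.16 with UV and 1.01 with mock treatment. Its call after UV was lost without SW13+vector UV array 3 (0.99), and its call in mock-treated cells under 6 of the settings tried, among them without SW13+vector mock array 1 (0.82) or SW13+BRG1 mock array 3 (0.92).

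Of the 13 HLA probe sets, 11 carry the suffix x_at, which marks probes that can bind similar sequences of other transcripts. The annotation used here assigns each of the 23 probe sets to 1 gene, but an older annotation in the study's supplementary material gives HLA-B and HLA-C together to several of them. Signals of HLA-B and HLA-C are thus not separate measurements of each transcript. Without the x_at probe sets, 9 probe sets were tested and 3 were called higher in each condition, namely HLA-E 200904_at, PSMB8 209040_s_at and PSMB9 204279_at.

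**Figure D2:**
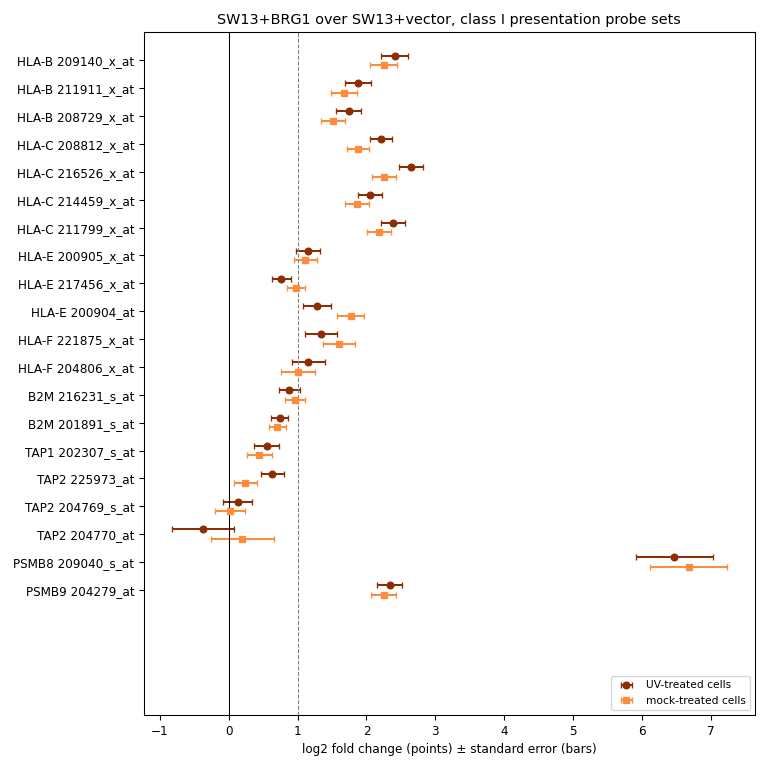
log2 fold change of SW13+BRG1 over SW13+vector (horizontal axis) for each of the 20 tested probe sets, in UV-treated (circles) and mock-treated cells (squares), with bars for the standard error and a dashed line at a fold of 2. PSMB8 stands far to the right at 6.47 and 6.67, the HLA-B and HLA-C probe sets lie between 1.51 and 2.65, and those of B2M, TAP1 and TAP2 stay to the left of the dashed line.

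B2M, the light chain that all of these heavy chains need to reach the surface, read 11249, 11377 and 11884 (216231_s_at) in SW13+BRG1 with UV and 8117, 8387 and 6884 with mock treatment. SW13+vector cells had 6551, 6257 and 5925 with UV and 4555, 4708 and 2937 with mock treatment. The arrays of the lines did not overlap within either condition, yet the fold stayed under 2. This gave a log2 fold change of 0.88 (SE 0.15, limma adjusted p = 0.000685) with UV and 0.97 (SE 0.15, adjusted p = 0.000382) with mock treatment. The probe set 201891_s_at gave 0.74 and 0.70. In mock-treated cells 216231_s_at passed the fold of 2 under quantile normalization (1.04) and without SW13+vector mock array 1 (1.06) or 2 (1.09) or SW13+BRG1 mock array 3 (1.05).

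TAP1 and TAP2, which together form the peptide transporter, were the members whose signals differed least between the lines. TAP1 (202307_s_at) read 297, 345 and 437 in SW13+BRG1 with UV and 280.1, 242 and 363 with mock treatment. The vector cells had 244, 223 and 259.8 with UV and 231, 199 and 211 with mock treatment. The TAP1 arrays of the lines did not overlap within a condition, but lay close together. The log2 fold change of TAP1 was 0.55 (SE 0.18, limma adjusted p = 0.0441) with UV and 0.45 (SE 0.18, adjusted p = 0.113) with mock treatment, and neither was called. TAP2 (225973_at) read 199, 197 and 222 in SW13+BRG1 with UV and 145, 155 and 169 with mock treatment, against 116, 132 and 153 in SW13+vector with UV and 129.9, 146 and 121 with mock treatment. The mock-treated groups of TAP2 overlapped, and the UV-treated groups did not. For TAP2 it was 0.63 (SE 0.17, limma adjusted p = 0.015) with UV and 0.24 (SE 0.17, adjusted p = 0.386) with mock treatment, and its probe sets 204769_s_at (0.13 and 0.02) and 204770_at (-0.37 and 0.20) were not called.

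PSMB8 replaces the chymotrypsin-like subunit PSMB5 in the immunoproteasome. It read 173, 171 and 202 (209040_s_at) in SW13+BRG1 with UV and 116, 113 and 130.0 with mock treatment. In SW13+vector it read 4.06, 1.61 and 1.32 with UV and 1.19, 1.42 and 0.95 with mock treatment. The vector values stood at the 9.18th and 4.01st percentile of the arrays on average, near the lowest signals there are, while the values with BRG1 stood at the 82.5th and 75.2nd. The log2 fold change of 6.47 (SE 0.56, limma adjusted p = 2.72e-06) with UV and 6.67 (SE 0.56, adjusted p = 2.01e-06) with mock treatment therefore depends on how such low signals are treated. With signals raised to a floor at the 40th percentile it was 3.59 and 3.01, and with 16 added to each signal 3.43 and 2.98, and all of these were called. PSMB8 passed the filter on low signals through the SW13+BRG1 arrays alone.

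PSMB9 replaces PSMB6, the subunit with caspase-like activity. PSMB9 (204279_at) read 623, 618 and 777 in SW13+BRG1 with UV and 503, 539 and 428 with mock treatment. The vector cells had 143, 127 and 128 with UV and 97.4, 132 and 83.5 with mock treatment. The lowest array with BRG1 was above the highest with the vector in both conditions, with log2 fold changes of 2.34 (SE 0.18, limma adjusted p = 1.06e-06) with UV and 2.25 (SE 0.18, adjusted p = 1.52e-06) with mock treatment. TAP2, PSMB8, TAP1 and PSMB9 are neighbors in this order in the class II region of chromosome 6, between HLA-DOB and HLA-DMB. PSMB8 and PSMB9 were called and their neighbors TAP1 and TAP2 were not, nor were HLA-DOB (1.03 and 0.32) and HLA-DMB (-0.67 and -0.34) in UV-treated and mock-treated cells. The differences between these neighbors were not tested.

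The remaining 3 probe sets were too low to test. HLA-F 221978_at, B2M 232311_at and TAP2 208428_at had group means of 7.43 to 21.7, at the 26.3rd to 48.3rd percentile of the arrays.

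Of the constitutive proteasome, PSMB5 and PSMB6 gave the opposite sign, and PSMB7 differed little between the lines. PSMB5 (208799_at) averaged 2219.8 ± 419.7 and 1559 ± 73.7 in SW13+BRG1 with UV and mock treatment, against 2919 ± 106 and 2165 ± 134 in SW13+vector (SD, n = 3). Its log2 fold change between the lines was -0.41 and -0.47 with UV and mock treatment (limma adjusted p = 0.023 and 0.0117), under a fold of 2. PSMB6 had -0.55 and -0.71, and PSMB7, which PSMB10 replaces, had -0.09 and -0.17. PSMB10, the remaining immunoproteasome subunit, did not go with PSMB8 and PSMB9: it averaged 368 ± 43.0 and 224 ± 10.4 in SW13+BRG1 with UV and mock treatment, against 441 ± 116 and 354 ± 79.5 in SW13+vector, and its log2 fold change was -0.23 and -0.64. None of these 4 was called. PSME1, a subunit of the activator that caps the proteasome, was the 1 of 7 tested proteasome partners that was called (7.68% and 7.69% of all tested probe sets were higher with UV and mock treatment), with 1825, 1664 and 1897 in SW13+BRG1 with UV and 1091, 1164 and 1052 with mock treatment, against 267, 451 and 286 in SW13+vector with UV and 149, 195 and 253 with mock treatment. No PSME1 array of the lines overlapped, and its log2 fold change was 2.46 and 2.50 (SE 0.21, limma adjusted p = 2.05e-06 and 1.79e-06). The median of the 7 partners was -0.23 after UV and -0.31 in mock-treated cells.

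Of 12 tested genes for peptide loading and trimming, 3 were higher in UV-treated SW13+BRG1 and 4 in mock-treated SW13+BRG1, and 0 were lower, with list medians of 0.36 and 0.21. Over all tested probe sets, 7.68% were higher and 5.97% lower with UV, and 7.69% and 4.30% with mock treatment. Each gene of a list stands by its brightest probe set, so these shares are a guide and not a like-for-like count. ERAP1 and ERAP2 are the aminopeptidases that trim peptides in the endoplasmic reticulum. ERAP2 (219759_at) averaged 269 ± 38.9 in SW13+BRG1 and 1.45 ± 0.21 in SW13+vector with mock treatment, and all 4 of its tested probe sets were called in each condition, although its vector signals are among the lowest on the array and the log2 fold change was 4.20 with UV and 4.18 with mock treatment once signals under the 40th percentile were set to it. ERAP2 219759_at passed the filter on low signals through the SW13+BRG1 arrays alone, so the counts of this list partly rest on a gene that entered by being high there. ERAP1 (209788_s_at) averaged 339.8 ± 94.4 and 67.8 ± 32.3 in mock-treated SW13+BRG1 and SW13+vector, a log2 fold change of 2.43 (SE 0.39, limma adjusted p = 0.000546). After UV it averaged 431 ± 119.6 and 101 ± 27.1, at 2.09 (SE 0.39, adjusted p = 0.00151), and 1 of its 3 probe sets was called after UV and 2 of 3 in mock-treated cells. TAPBP (tapasin), which bridges TAP and the heavy chain, was higher at 1.28 (SE 0.24, adjusted p = 0.00178) with UV and 1.17 (SE 0.24, adjusted p = 0.00368) with mock treatment, by 1 of its 3 probe sets, and in mock-treated cells it was not called without SW13+vector mock array 2 (0.97). The tapasin-related TAPBPL (218746_at) had 1.94 (SE 0.74, adjusted p = 0.0767) after UV and was higher in mock-treated cells at 2.60 (SE 0.74, adjusted p = 0.0223), a call lost without SW13+vector mock array 3 (1.72) or any single SW13+BRG1 mock array (2.49 to 2.74). Its size depended on how low signals were treated: with signals under the 40th percentile set to it, TAPBPL had 1.39 after UV (adjusted p = 0.00245) and 1.77 in mock-treated cells, and with 16 added to each signal 1.14 (adjusted p = 0.0128) and 1.37, so that it was called in both conditions under both settings. These values are of 1 of the 2 tested TAPBPL probe sets. Of the 2, 1 was called higher after UV, and it was not 218746_at, and 2 were called higher in mock-treated cells. The loading chaperones were not called.

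**Figure D3:**
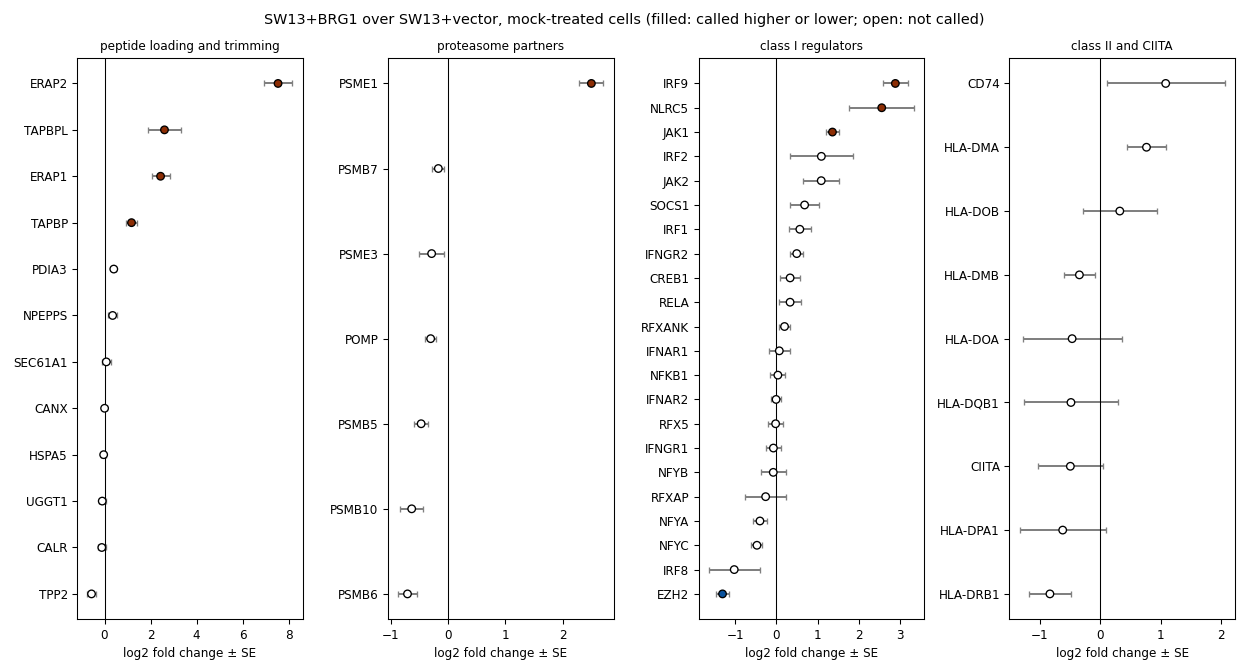
log2 fold change of SW13+BRG1 over SW13+vector in mock-treated cells (horizontal axes) with standard errors for the tested genes of 4 lists, with filled points for called genes. Called genes are few in each panel, with 4 in peptide loading and trimming, PSME1 alone among proteasome partners, 4 among regulators (EZH2 being lower) and 0 in class II.

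Of 22 tested regulators of class I genes, 5 were higher and 1 was lower in UV-treated SW13+BRG1, and 3 were higher and 1 was lower in mock-treated SW13+BRG1, with medians of 0.22 and 0.13, against 7.68% higher and 5.97% lower of all tested probe sets with UV and 7.69% and 4.30% with mock treatment. NLRC5, the class I transactivator, read 45.0, 49.7 and 39.6 in SW13+BRG1 with UV and 65.8, 71.6 and 33.0 with mock treatment. It read 3.22, 2.59 and 24.2 in SW13+vector with UV and 6.60, 6.25 and 18.6 with mock treatment. Its arrays did not overlap between the lines within a condition, at a log2 fold change of 2.92 (SE 0.78, limma adjusted p = 0.015) with UV and 2.55 (SE 0.78, adjusted p = 0.0337) with mock treatment. The NLRC5 call did not stand on every array: with UV it was lost without SW13+BRG1 array 2 (2.85, adjusted p = 0.0508) or SW13+vector array 1 (2.49, 0.0592) or 2 (2.34, 0.063), and with mock treatment without array 1 or 2 of either line (2.28 to 2.41) or under quantile normalization (2.45). Most of its vector signals are near the bottom of the arrays, and its log2 fold change was 1.29 with UV and 1.71 with mock treatment with signals under the 40th percentile set to it, and 1.32 and 1.44 with 16 added to each signal, all called. IRF9, the DNA-binding part of the interferon-activated complex ISGF3, averaged 346 ± 58.8 and 348 ± 118 in SW13+BRG1 with UV and mock treatment, against 49.0 ± 15.4 and 45.3 ± 6.01 in SW13+vector. The interferon receptor kinase JAK1 was higher in both conditions, at 1499 ± 80.2 and 1297 ± 204 in SW13+BRG1 against 532 ± 37.4 and 509 ± 105 in SW13+vector (limma adjusted p = 1.14e-05 with UV and 2.81e-05 with mock treatment). IRF8 and JAK2 were higher after UV, at 2.01 and 1.75, and the IRF8 call was lost when any single SW13+BRG1 UV array, or SW13+vector UV array 1 or 3, was left out (1.86 to 2.08), with signals under the 40th percentile set to it (0.76) or with 16 added to each signal (0.89). JAK2 was called under these low-signal settings at 1.43 and 1.08, but only 1 of its 3 tested probe sets was called after UV, and 0 in mock-treated cells. EZH2, the catalytic subunit of the Polycomb repressor PRC2, was lower, at 234 ± 18.1 and 291 ± 38.3 in SW13+BRG1, against 584 ± 21.6 and 724 ± 147 in SW13+vector with UV and mock treatment. IRF1, an interferon regulatory factor that acts at many class I promoters, was read by 2 probe sets that differed in their calls. The one with the highest signal on any array, 202531_at, was not called, with 0.15 (limma adjusted p = 0.75) after UV and 0.57 (adjusted p = 0.166) in mock-treated cells. The other, 238725_at, read 92.2, 72.7 and 80.4 in SW13+BRG1 with UV and 59.8, 75.6 and 64.7 with mock treatment, against 29.5, 55.6 and 48.2 in SW13+vector with UV and 11.7, 3.31 and 3.39 with mock treatment. By 238725_at IRF1 was higher in mock-treated SW13+BRG1 (3.71, SE 0.47, limma adjusted p = 8.61e-05, and 2.16 with signals under the 40th percentile set to it), was not called after UV (0.92, adjusted p = 0.193), and was higher after UV in SW13+vector (3.08, adjusted p = 0.0018, and 1.54 with that floor), while the interaction was not called (adjusted p = 0.409).

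Among interferon-stimulated genes, 16 of 25 tested were higher in UV-treated SW13+BRG1 and 17 of 25 in mock-treated SW13+BRG1, and 0 were lower, with medians of 2.38 and 2.94, against 7.68% and 7.69% higher of all tested probe sets. Of 33 such genes on the array, 25 passed the filter on low signals. Some passed it through the SW13+BRG1 arrays alone, so the counts and medians partly rest on genes that entered by being high there. IFIT1, an antiviral RNA-binding protein, averaged 487 in SW13+BRG1 and 2.78 in SW13+vector with mock treatment, and the guanylate-binding protein GBP1 averaged 239 and 9.04. Of the class II genes and their transactivator CIITA, 0 of 9 tested were called in any comparison by limma, and 12 of 12 had probe sets on the array. Of all tested probe sets, 5.97% and 4.30% were lower between the lines with UV and mock treatment. For UV against mock treatment, 0.561% to 5.81% were called in a direction. With 9 genes, 0 calls lie near these shares. Signals were low, with CIITA at group means of 18.3 to 27.6 and a highest group mean of 79.2 (HLA-DMB). The summed signals of the class II genes and CIITA overlapped, at 288 to 313 and 203 to 291 in SW13+BRG1 with UV and mock treatment, against 273 to 323 and 231 to 334 in SW13+vector.

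Other class I and class I-like genes went in both directions. Of 8 tested, HLA-G, HLA-J and MR1 were higher in SW13+BRG1 in both conditions, FCGRT was higher after UV (1.56, with 0.99 in mock-treated cells), and MICB was lower in both, with list medians of 1.13 with UV and 0.84 with mock treatment. The shares of all tested probe sets were 7.68% higher and 5.97% lower with UV and 7.69% and 4.30% with mock treatment. MR1, which presents microbial vitamin B metabolites, averaged 161 ± 11.4 and 149 ± 41.4 in SW13+BRG1 with UV and mock treatment, against 49.0 ± 2.46 and 25.9 ± 7.26 in SW13+vector, and 4 of its 5 probe sets were called. MICB, a stress ligand of the activating receptor NKG2D, read 249, 231 and 206 in SW13+BRG1 with UV and 183, 214 and 219 with mock treatment. It read 751, 1001 and 643 in SW13+vector with UV and 777, 739 and 564 with mock treatment. No MICB array of the lines overlapped, and its log2 fold change was -1.78 (SE 0.18, limma adjusted p = 1.09e-05) with UV and -1.74 (SE 0.18, adjusted p = 1.38e-05) with mock treatment. HLA-G and the pseudogene HLA-J were read by x_at probe sets and share sequence with the other heavy chains.

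Blood cells express class I genes at a high level. Of 13 blood cell markers on the array 8 were tested, and 0 were called higher in SW13+BRG1 in either condition, 2 were lower after UV and 1 was lower with mock treatment. Of all tested probe sets, 7.68% were higher and 5.97% lower with UV, and 7.69% and 4.30% with mock treatment. With 8 genes, 0 higher calls lie near these shares. Their summed signal was 191 to 215 and 199.8 to 218 in SW13+BRG1 with UV and mock treatment, against 307 to 416 and 299 to 346 in SW13+vector. The markers called lower were PTPRC (CD45), the pan-leukocyte phosphatase, which averaged 6.77 and 7.07 in SW13+BRG1 against 118 and 123 in SW13+vector, with 3 of its 3 probe sets lower, and after UV also the B cell receptor chain CD79A. PTPRC (212588_at) passed the filter on low signals through the SW13+vector arrays alone. Its log2 fold change was -4.68 with UV and -4.07 with mock treatment. With signals under the 40th percentile set to it, PTPRC had -2.93 and -2.97, both still called. CD79A averaged 10.96 ± 9.54 in SW13+BRG1 and 48.6 ± 24.1 in SW13+vector with UV, and 42.3 ± 6.48 and 49.3 ± 13.5 with mock treatment. The part of these markers in the class I values was not tested. CD14 and MS4A1 were too low to test.

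After UV, 0 of the 20 probe sets were called in SW13+BRG1, whereas 0.561% of all tested probe sets were called higher and 5.81% lower. In SW13+vector 1 of 20 was called higher and 0 lower, against 0.665% higher and 3.60% lower of all tested. By limma, 7 of the 20 in SW13+BRG1 had an adjusted p under 0.05 and 13 an unadjusted p under 0.05, with folds under 2, and in SW13+vector 3 had an adjusted p under 0.05. The called probe set was HLA-E 200904_at, whose values are given above, with log2 fold changes of 0.66 (SE 0.20, limma adjusted p = 0.0423) in SW13+BRG1 and 1.15 (SE 0.20, adjusted p = 0.00341) in SW13+vector. It was not called in SW13+vector when the arrays were scaled to the hybridization controls (0.89). The probe sets 200905_x_at and 217456_x_at of the same gene had 0.53 and 0.30 in SW13+vector.

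All 20 probe sets had a log2 fold change above 0 after UV in both lines, with medians of 0.50 in SW13+BRG1 and 0.34 in SW13+vector against -0.06 and -0.01 over all tested probe sets, but with the arrays scaled to the hybridization controls 16 and 15 of the 20 were above 0, with medians of 0.11 and 0.08. That scaling moved the median of all tested probe sets to -0.45 in SW13+BRG1 and -0.27 in SW13+vector. The arrays with UV lay above the mock-treated ones without overlap for 15 of 20 probe sets in SW13+BRG1 and 8 of 20 in SW13+vector, which held for 13.3% and 12.2% of all tested probe sets. Of 5 reference genes, the bright GAPDH, ACTB, HPRT1 and PPIA had 0.41 to 0.51 in SW13+BRG1 and 0.27 to 0.34 in SW13+vector, and GAPDH averaged 13944 ± 1326 with UV against 10558 ± 1466 with mock treatment in SW13+BRG1. TBP, the TATA-binding protein and the dimmest of the 5, went the other way: it was lower after UV in SW13+BRG1, at 84.1 ± 10.9 with UV and 183 ± 36.5 with mock treatment (-1.11, SE 0.20, limma adjusted p = 0.00219), and had 199 ± 27.7 and 308 ± 39.7 in SW13+vector (-0.63, adjusted p = 0.0592). The part of these shifts in the values of the class I genes was not tested. B2M had the same order of size, with 0.57 (SE 0.15, limma adjusted p = 0.0215) in SW13+BRG1 and 0.65 (SE 0.15, adjusted p = 0.0154) in SW13+vector for 216231_s_at.

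**Figure D4:**
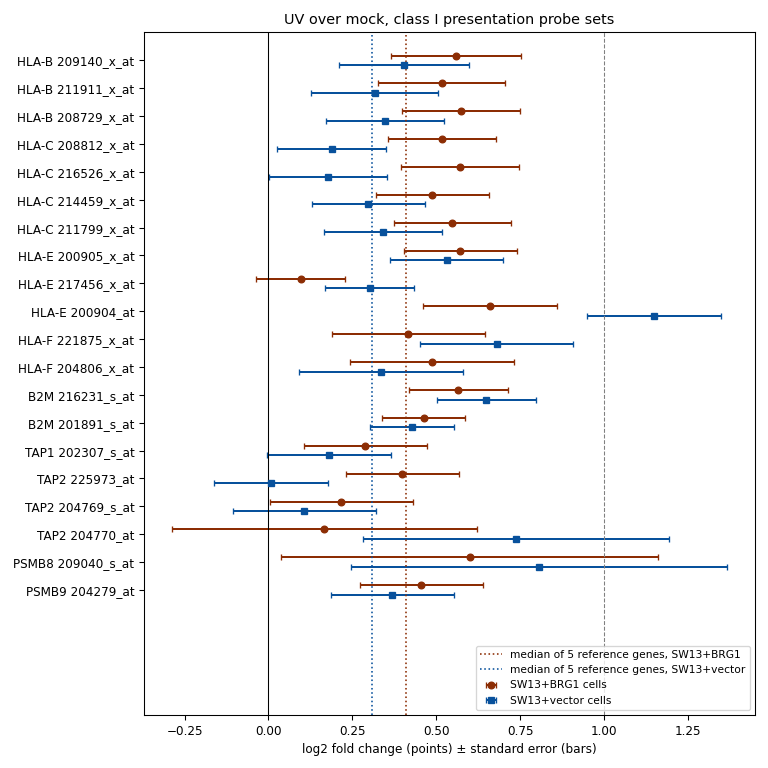
log2 fold change of UV-treated over mock-treated cells (horizontal axis) for the 20 tested probe sets in SW13+BRG1 (circles) and SW13+vector (squares), with bars for the standard error, dotted lines at the medians of 5 reference genes (0.41 and 0.31) and a dashed line at a fold of 2. All points lie right of 0, most near the dotted lines, and HLA-E 200904_at in SW13+vector alone passes the dashed line.

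The response to UV was not shown to differ between the lines for any of the 20 probe sets. Of the tests of the interaction, the difference of the UV effect in SW13+BRG1 minus that in SW13+vector, 0 were called by limma and 0 had an unadjusted p under 0.05, while 0.0123% of all tested probe sets were called higher and 0.0368% lower, and 1602 of 32622 had an unadjusted p under 0.05. The differences ran from -0.57 to 0.39 with a median of 0.11. The widest errors were those of PSMB8 (-0.21, SE 0.79) and TAP2 204770_at (-0.57, SE 0.64), while HLA-C 208812_x_at had 0.33 (SE 0.23) and HLA-E 200904_at -0.49 (SE 0.28). Among the regulators, UV lowered IRF2 and CREB1 in both lines (IRF2 by limma adjusted p = 0.0354 in SW13+BRG1 and 0.00978 in SW13+vector), whereas IRF8, NFYA (lower) and SOCS1 (higher) passed the threshold in SW13+vector and not in SW13+BRG1, and the interaction was not called for any of the 22. Another of the 5 NFYA probe sets was lower in SW13+BRG1, and IRF1 by 238725_at was higher in SW13+vector and not in SW13+BRG1. The call of NFYA in SW13+vector had -1.29 (limma adjusted p = 0.000495). That of IRF2 in SW13+vector had -3.68, of which -1.03 (adjusted p = 0.0551, not called) was left with signals under the 40th percentile set to it. The other calls were close to the threshold: those of IRF8 and SOCS1 in SW13+vector were lost when any single array of that line was left out, that of IRF2 in SW13+BRG1 without SW13+BRG1 UV array 1 or 3 or any SW13+BRG1 mock array (-2.77 to -2.03), and those of CREB1 without SW13+BRG1 UV array 3 (-0.99), SW13+BRG1 mock array 1 (-0.97), SW13+vector UV array 3 (-0.94) or SW13+vector mock array 1 (-0.92) or 2 (-0.85). These CREB1 values are of 204313_s_at alone. Of the 7 tested CREB1 probe sets, 6 were called lower after UV in SW13+BRG1 and 4 in SW13+vector.

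Across the 12 arrays, the 9 genes, each by its brightest tested probe set, correlated pairwise at 0.76 to 0.99, with a median of 0.87 over 36 pairs. These arrays share 4 group means, and once these were taken away the correlations ran from -0.70 to 0.79 with a median of 0.13. The genes whose log2 signal was most like the mean of the 9 over the 12 arrays, of 13775 genes compared, were ETHE1 (r = 0.996), CTSB (r = 0.996), TST (r = 0.996), NPC2 (r = 0.994) and TPRG1L (r = 0.993). The group means were not taken away for these r values, so they largely describe the difference between the lines. PSMB8, with its low signals in SW13+vector, moved the mean of the 9 most. ETHE1, a sulfur dioxygenase of mitochondria, averaged 1180.2 and 841 in SW13+BRG1 with UV and mock treatment, against 354 and 260.1 in SW13+vector. The lysosomal protease CTSB averaged 2178 and 1649 in SW13+BRG1, against 599.7 and 484 in SW13+vector.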

How the data were processed

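Total RNA of 12 samples (4 groups of 3) was hybridized to Affymetrix U133 Plus 2.0 arrays. The deposited values are linear signal intensities that the authors computed with MAS at default settings and scaled to a mean of 125 per array. The number of arrays limits the precision. Signals were taken to log2 without further normalization or pseudocount. Probe sets at or above the array median in at least 3 arrays were tested, 32622 of 54613 without the 62 controls. They were fitted with limma 3.58.1 (R 4.3.3) with 1 mean per group over all 12 arrays and a variance prior with a trend in the signal, after a test on simulated data, and p-values were adjusted by Benjamini-Hochberg over the tested probe sets. The study's methods used a Welch test, which was an alternative here. The platform annotation gives 1 gene to 41097 probe sets, several to 1801 and none to 11777. A gene of another list was represented by its brightest probe set with 1 gene. All members were named, and of the other lists up to 6 called genes with the largest change, the remaining proteasome subunits, NLRC5 and IRF1, SMARCA4 and GAPDH as checks, and the 5 genes most like the members. Genes given beyond this rule (low markers, neighbors and genes called after UV) were chosen after their values were seen. The members and lists were chosen with earlier results of these data known, and some genes of these lists are not reported here. In all, 25 alternative settings were computed.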

Additional observations from a re-analysis of the deposited data

How the results depend on the processing

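The 13 calls between the lines in UV-treated cells became 12 or 13 when 1 array at a time was left out, and the 13 calls in mock-treated cells became 12 to 14. They became 8 and 5 in UV-treated and mock-treated cells by the methods' Welch test after Benjamini-Hochberg, and 3 and 3 without the x_at probe sets, where fewer probe sets were tested (a setting chosen after seeing the data). For UV in SW13+vector, the 1 call was kept in every such leave-out (1 to 1) and became 0 with scaling to the hybridization controls, 0 by the Welch test after adjustment and 3 by the adjusted p alone. For UV in SW13+BRG1, the 0 calls stayed 0 to 0 in the leave-outs and became 7 by the adjusted p alone. The interaction kept 0 calls, 0 to 0 in the leave-outs. The cause of these changes was not tested. With the replicate number as a block, the counts of member probe sets were 13, 13, 1, 0 and 0, and this block changed none of these counts. Over all tested probe sets the block raised the calls in every comparison. Between the lines with mock treatment, 2785 were called higher with the block and 2509 without it. For the interaction, 53 were called lower with the block and 12 without it. Deviations from the group means were correlated between arrays of different groups. With the same number, r ran from 0.015 to 0.29 over 18 pairs (median 0.11), with 11 over 0.1. With different numbers, r ran from -0.22 to 0.14 over 36 pairs (median -0.12), with 4 over 0.1. Of the 12 arrays, 8 were closest to their own number. Arrays of the same number thus tended to deviate together, but the main fit did not treat the number as a pairing. No value that was called changed sign under any setting. Of all recomputed values, called and not called together, 1 of 439 (lines, UV), 6 of 439 (lines, mock), 5 of 439 (UV, SW13+BRG1), 9 of 439 (UV, SW13+vector) and 35 of 419 (interaction) changed sign. All of these belonged to values that were not called, whose own share is therefore larger where many values were called. HLA-F 204806_x_at in mock-treated cells lost its call under quantile normalization (0.95), a common median (0.95), the hybridization controls (0.99), 16 added to the signal (0.92), and without the arrays named with it. HLA-E 217456_x_at gained a call there under quantile normalization (1.01) and without SW13+vector mock array 3 (1.06) or SW13+BRG1 mock array 2 (1.00). The genes outside the members were recomputed under 18 of these settings. Signals near the bottom of the arrays, such as those of PSMB8 in SW13+vector, limit how far a fold can be read.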
